A study of Homo sapiens with 9 samples.

Results

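The kynurenine pathway was followed through the 10 genes that encode its main enzymes, *TDO2*, *IDO1*, *AFMID*, *KMO*, *KYNU*, *KYAT1*, *KYAT3*, *AADAT*, *HAAO* and *QPRT*, in 9 RNA libraries made from MDA-MB-453 cells. Members were taken by symbol from a table of 59452 genes, and their 85 annotated transcripts from tables of 236920 transcripts. MDA-MB-453 is an established human breast cancer line, given in the sample labels as triple-negative and wild type (WT). There were 3 groups of 3 libraries, each harvested at 48 hours: attached cells with vehicle, cells in forced suspension with vehicle, and cells in forced suspension with 10 µmol/L AT-0174. The vehicle was DMSO, suspension was forced with poly-HEMA-coated plates that cells cannot adhere to, and AT-0174 is an inhibitor of both TDO2 and IDO1. All libraries come from one line, and no attached cells received AT-0174, so the effect of the inhibitor was measured in suspension only.

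The kynurenine pathway breaks down most of the tryptophan that is not used for protein. TDO2 or IDO1 opens the indole ring, AFMID releases kynurenine, and kynurenine then either goes through KMO, KYNU, HAAO and QPRT toward NAD or is turned into kynurenic acid by the aminotransferases KYAT1, KYAT3 and AADAT. TDO2 is best known as a liver enzyme and IDO1 as an enzyme induced by interferon, and kynurenine made by tumor cells can bind the aryl hydrocarbon receptor.

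The libraries held 36649997 to 48019126 estimated counts, with a median of 38658156 in attached cells, 42970982 in suspension with vehicle and 44064734 with AT-0174. A count of 0 allows up to 3 counts, which is 0.0625 to 0.0819 CPM (counts scaled to a common library total), and such limits cover counting error only. The 10 most abundant genes took 7.54–9.05% of counts in attached cells, 5.02–5.18% in suspension with vehicle and 5.26–6.35% with AT-0174. Their part in the results was not tested. The 7 luminal epithelial markers were all detected and summed to 4444–5413 TPM (counts divided by transcript length and scaled to a common total), of which *KRT18* held 695–869 TPM. Of the receptors that triple-negative tumors lack, *ESR1* reached at most 0.14 TPM and *PGR* 0.31 TPM, but *ERBB2* stood at 398–436 TPM. Liver markers were nearly absent, with 5 of 6 under 1 TPM, *ALB* at most 0.18 TPM and *APOB* at 0. Of the leukocyte markers and of the fibroblast markers 4 of 5 each were under 1 TPM, but the fifth fibroblast marker, *COL1A1*, a collagen chain, stood at 51.5–66.0 TPM.

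*TDO2* was by far the most abundant message of the pathway. On the TPM scale, which corrects for length, it averaged 153 over the 9 libraries (range 100–197), against 43.8 (40.2–48.4) for *QPRT* and 24.8 (21.1–27.8) for *AFMID*. *KMO* at 9.63 TPM (6.79–13.5) and *KYAT3* at 9.34 TPM (6.53–10.5) had overlapping ranges. *KYAT1* at 0.708 TPM (0.345–1.2) and *KYNU* at 0.667 TPM (0.50–1.04) also overlapped. *HAAO* averaged 0.0701 TPM and *IDO1* 0.00469 TPM, both with libraries at 0, and *AADAT* was at 0 in all 9. Messages were thus high at the entry of the pathway and at QPRT, and low for KYNU and HAAO, which act between them.

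**Figure D1:**
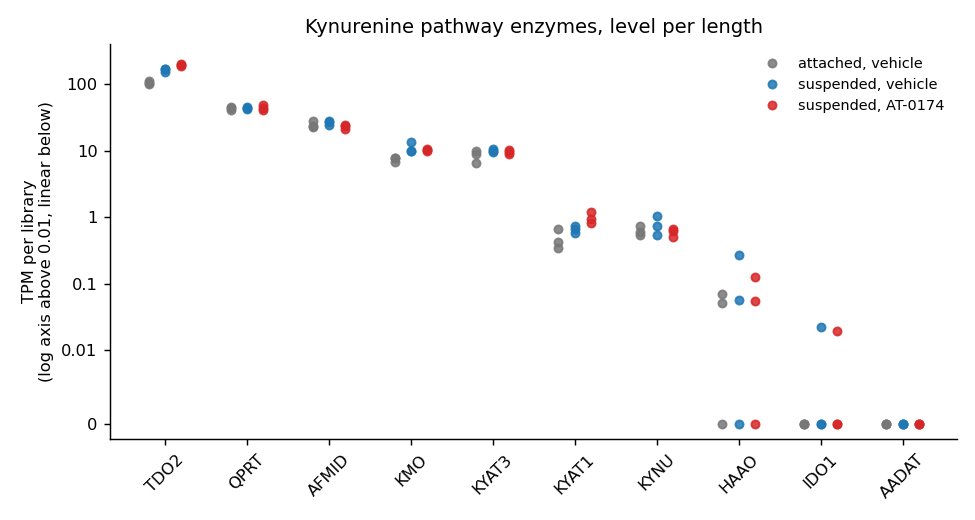
Level of each kynurenine pathway gene in each of the 9 libraries, in TPM on a log axis that is linear near 0, with points coloured by group. *TDO2* lies between 100 and 197 TPM in all libraries, whereas *HAAO*, *IDO1* and *AADAT* lie at or near 0.

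The summed TPM of the 10 genes was 190 ± 7.02 in attached cells, 256 ± 6.84 in suspension with vehicle and 280 ± 12.7 with AT-0174 (mean ± SD, n = 3 each). *TDO2* alone made up 55.1 ± 1.35%, 63.6 ± 1.82% and 68.4 ± 0.905% of these sums, in the same order. Among all 59452 genes ranked by TPM it stood at places 1554–1679 in attached cells, 1025–1132 in suspended cells and 844–865 with AT-0174. These are descriptions of levels, and the tests were made on counts.

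Of the 10 genes, 7 passed the filter on low counts (filterByExpr of edgeR) and were tested among 15528 genes; *IDO1*, *AADAT* and *HAAO* did not pass. In suspended against attached cells, both with vehicle, 3 of the 7 were called at an adjusted p under 0.05 in edgeR's quasi-likelihood test with Benjamini-Hochberg adjustment, against 21.2% of all genes tested (10.4% higher and 10.8% lower). *TDO2* and *KMO* rose and *QPRT* fell. With AT-0174 against vehicle in suspension, 1 of 7 was called, *TDO2*, which rose, against 0.779% of all genes (0.522% higher and 0.258% lower). In suspended cells with AT-0174 against attached cells, 3 were called, *TDO2*, *KMO* and *KYAT1*, all higher, against 24% of all genes (12.2% higher and 11.8% lower). The median log2 fold change of the 7 was 0.11, 0.06 and 0.11 in these comparisons, beside −0.00025, 0.0013 and −0.0017 over all genes. The comparisons share libraries with each other, so their values are given side by side.

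**Figure D2:**
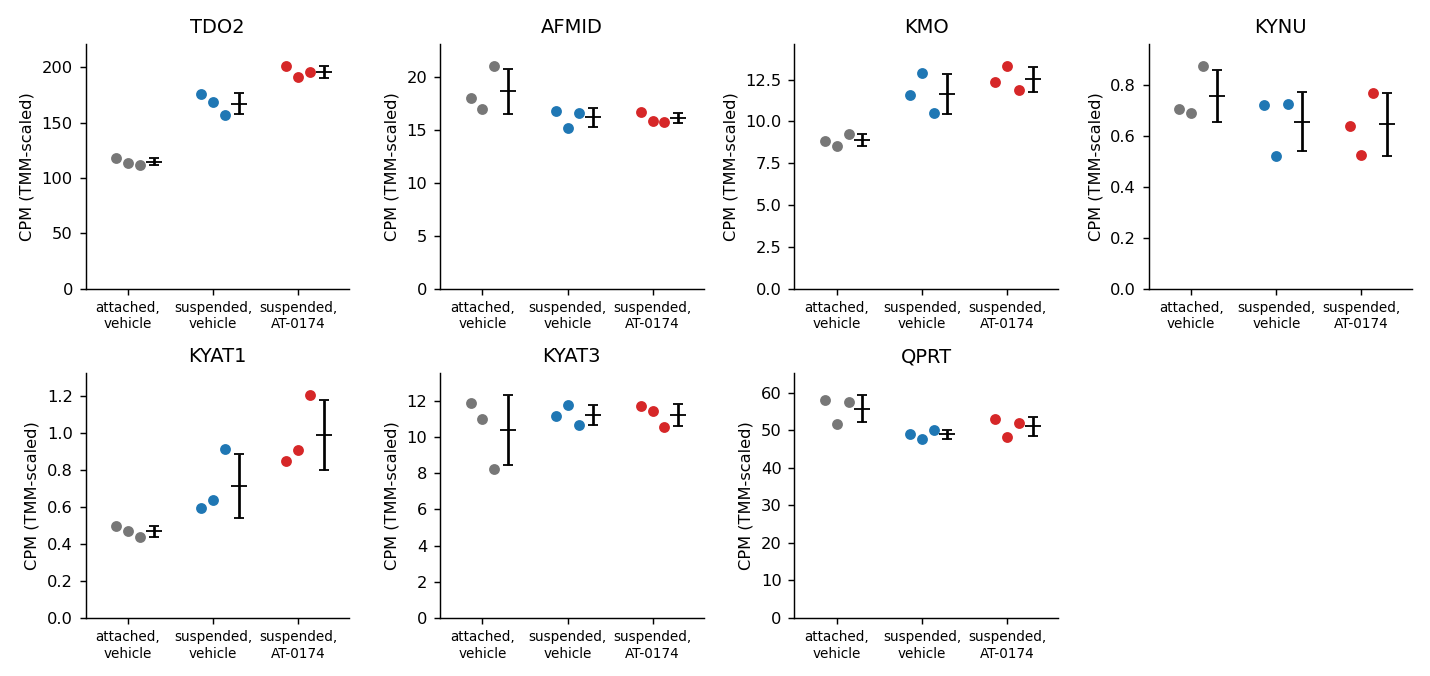
CPM, scaled by TMM, of the 7 tested genes in each library, with the mean and SD of each group of 3 as a bar and whiskers; each panel has its own axis. *TDO2* separates all 3 groups, *KMO* separates attached from suspended cells, and *KYNU* and *KYAT3* overlap between groups.

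TDO2 and IDO1 catalyze the same first step with unrelated proteins, and both are targets of AT-0174. *TDO2* (ENSG00000151790, chr4:155854738-155920406, plus strand, GRCh38) measured 118, 114 and 112 CPM in attached cells. It measured 176, 168 and 157 CPM in suspension with vehicle. With AT-0174 it measured 201, 191 and 196 CPM. No library of a group overlapped one of another group, and the order from attached to suspended to suspended with AT-0174 held for all 9. *TDO2* rose 1.46-fold in suspension, a log2 fold change of 0.54 (SE 0.042, 95% confidence interval 0.45 to 0.63, adjusted p = 6.62e-06, edgeR). With AT-0174 it rose a further 1.17-fold over suspended cells with vehicle (log2 0.23, SE 0.041, interval 0.14 to 0.32, adjusted p = 0.0221, edgeR). Against attached cells the rise with AT-0174 was 1.71-fold (log2 0.77, SE 0.042, adjusted p = 2.28e-07, edgeR). By p-value *TDO2* ranked 35, 74 and 15 of 15528 genes in the 3 comparisons. In bulk RNA, more cells with *TDO2* and more *TDO2* RNA per cell cannot be told apart. Of the liver markers, the 1 that was tested, *TAT*, stood at 1.08–1.62 TPM and rose in suspension (log2 0.35, adjusted p = 0.0386, edgeR). With AT-0174 the log2 fold change of *TAT* was −0.34 against vehicle and 0.01 against attached cells, and neither was called. Among the luminal markers, *FOXA1* (log2 0.26) and *XBP1* (log2 0.37) rose in suspension. Of the 7 luminal markers 0 were called lower, where 10.4% of all genes were called higher and 10.8% lower. The fibroblast marker *COL1A1* fell by 0.28 on the log2 scale (adjusted p = 0.00182, edgeR). The part of these markers in the *TDO2* result was not tested.

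The smaller difference, AT-0174 against vehicle in suspension, lost its call when suspended vehicle library 2 or 3 or AT-0174 library 1 or 3 was left out, with adjusted p from 0.0696 to 0.0954 in edgeR and a log2 fold change that stayed between 0.18 and 0.26. Over all 21 alternative settings its adjusted p ranged from 5.14e-07 to 0.0954. The rise in suspension kept its call in all 21, with log2 fold changes of 0.51 to 0.59.

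*IDO1* (ENSG00000131203) gave 1 count in suspended vehicle library 1, 1 in AT-0174 library 2 and 0 in the other 7. All its values lie below the limit that a count of 0 allows, so no difference in *IDO1* was detectable at this depth. Its paralog *IDO2* was at or under 0.01 TPM throughout.

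The sequence before the start site is shown for *TDO2* and *KMO*, the pathway genes that rose in suspension. Both windows are the 250 bases before a RefSeq start site (GRCh38.p14), printed 5′ to 3′ on the gene's strand, with motif matches in capitals. The *TDO2* window (chr4:155903446-155903695, plus strand) ends just before base 155903696, where the transcript with nearly all *TDO2* reads begins. The *KMO* window (chr1:241532128-241532377, plus strand) ends just before base 241532378, where ENST00000366559, the *KMO* transcript with most reads, begins.
*TDO2*: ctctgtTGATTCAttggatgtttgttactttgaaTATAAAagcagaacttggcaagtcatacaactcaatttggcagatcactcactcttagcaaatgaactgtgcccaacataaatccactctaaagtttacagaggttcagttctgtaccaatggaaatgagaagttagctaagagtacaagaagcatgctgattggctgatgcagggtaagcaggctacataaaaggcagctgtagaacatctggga
*KMO*: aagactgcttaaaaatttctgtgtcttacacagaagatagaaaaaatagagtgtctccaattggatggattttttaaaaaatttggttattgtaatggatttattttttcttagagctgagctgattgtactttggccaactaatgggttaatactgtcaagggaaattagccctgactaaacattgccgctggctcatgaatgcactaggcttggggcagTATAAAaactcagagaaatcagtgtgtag
In the *TDO2* window TGATTCA, a match to the AP-1 motif TGANTCA, lies at -244 to -238 and the TATA box letters TATAAA at -216 to -211, counted back from the start site. In the *KMO* window TATAAA lies at -29 to -24, and none of the other motifs matched. The motifs searched on both strands were TATAAA, found in 10.7% of 35116 RefSeq windows of the same length, GCGTG, the core of the aryl hydrocarbon receptor element, in 32.2%, TGANTCA in 6.57%, TGACNNNGC, the core of the antioxidant element, in 10.9%, and the κB consensus in 5.21%. RefSeq windows were matched for 9 of the 10 genes, all but *IDO1*, and gave 14 windows, of which 4 held TATAAA, 2 TGACNNNGC, 1 GCGTG, 1 TGANTCA and 0 the κB consensus. A match is a run of letters and does not show that a factor binds there.

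AFMID hydrolyzes N-formylkynurenine to kynurenine. *AFMID* (ENSG00000183077, chr17:78187358-78207702, plus strand) measured 18.0, 17.0 and 21.1 CPM in attached cells, 16.8, 15.2 and 16.6 CPM in suspension with vehicle and 16.8, 15.9 and 15.8 CPM with AT-0174. All 6 suspended libraries lay below the 3 attached ones, the nearest by less than the spread within groups. The log2 fold change in suspension was −0.21 (SE 0.075, adjusted p = 0.0684, edgeR) and did not pass. It was 0.00 for AT-0174 against vehicle (interval −0.17 to 0.16, adjusted p = 0.997, edgeR). On the TPM scale the attached libraries, at 23.6, 22.9 and 27.7, were not above the suspended ones, at 24.4, 27.2 and 27.8 with vehicle. The suspension difference was called in 2 of 21 alternatives. These were the omission of attached library 2, at −0.27 (adjusted p = 0.0313, edgeR), and no filter on low counts, at −0.20 (adjusted p = 0.0286, edgeR). For AT-0174 against attached cells *AFMID* was not called in the main fit but was called, lower, in 4 of 21 alternatives. Its adjusted p there ranged from 0.025 to 0.292 over all 21.

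KMO, a flavoprotein of the outer mitochondrial membrane, hydroxylates kynurenine and so commits it to the branch toward NAD. *KMO* (ENSG00000117009, chr1:241532134-241595642, plus strand) measured 8.81, 8.55 and 9.24 CPM in attached cells. In suspended cells it measured 11.6, 12.9 and 10.5 CPM with vehicle and 12.4, 13.3 and 11.9 CPM with AT-0174. All 6 suspended libraries lay above all attached ones, and the suspended groups overlapped each other. *KMO* rose 1.31-fold in suspension (log2 0.39, SE 0.082, interval 0.21 to 0.57, adjusted p = 0.00618, edgeR) and was higher with AT-0174 than in attached cells (log2 0.50, SE 0.082, adjusted p = 0.00125, edgeR). AT-0174 against vehicle gave 0.10 (interval −0.07 to 0.27, adjusted p = 0.780, edgeR), which did not pass. The call in suspension held in all 21 alternatives, with log2 fold changes of 0.32 to 0.48, whereas the one for AT-0174 against attached cells was lost with counts rebuilt from TPM (adjusted p = 0.0502).

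*KMO* shares 1691 of its 5946 exonic bases with *OPN3* on the opposite strand, and whether counting used strand is not given in the sources used here. *OPN3* itself had log2 fold changes of 0.05, 0.05 and 0.10 in the 3 comparisons, none of which passed (adjusted p = 0.684, 0.924 and 0.400, edgeR). The ratio of *TDO2* to *KMO* TPM was 14 ± 0.750 in attached cells, 14.9 ± 2.32 with vehicle in suspension and 18.7 ± 0.916 with AT-0174 (mean ± SD, n = 3 each). That difference between the genes was not tested.

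KYNU cleaves kynurenine and 3-hydroxykynurenine with the help of vitamin B6, and HAAO then makes the precursor of quinolinic acid. *KYNU* (ENSG00000115919, chr2:142877657-143055833, plus strand) had only 22 to 34 counts a library, or 0.706, 0.692 and 0.875 CPM in attached cells, 0.723, 0.521 and 0.728 CPM in suspension with vehicle and 0.642, 0.525 and 0.771 CPM with AT-0174. All groups overlapped. Its log2 fold change in suspension was −0.21 (interval −0.77 to 0.36, adjusted p = 0.621, edgeR) and with AT-0174 −0.02 (interval −0.59 to 0.54, adjusted p = 0.994, edgeR), so a change in suspension anywhere from 0.585-fold to 1.28-fold could not be told from none at this depth.

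*HAAO* (ENSG00000162882, chr2:42767089-42792593, minus strand) had 0, 2 and 2 counts in attached cells, 6, 0 and 1 in suspension with vehicle and 0, 2 and 1 with AT-0174. Only suspended vehicle library 1 lay above the 3 counts that a count of 0 allows, and no comparison was made.

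QPRT converts quinolinic acid into nicotinic acid mononucleotide, the entry to NAD, and was the only tested member called lower in suspension, although *AFMID* and *KYNU* had similar log2 fold changes that did not pass. *QPRT* (ENSG00000103485, chr16:29663279-29698699, plus strand) measured 57.9, 51.6 and 57.5 CPM in attached cells, 49.0, 47.7 and 50 CPM in suspension with vehicle and 53.0, 48.2 and 52.0 CPM with AT-0174. The suspended vehicle libraries lay below every attached one, and the AT-0174 libraries overlapped both other groups. *QPRT* fell by 0.19 on the log2 scale in suspension (SE 0.052, interval −0.30 to −0.08, adjusted p = 0.0228, edgeR). With AT-0174 it was 0.06 above vehicle (interval −0.05 to 0.17, adjusted p = 0.795, edgeR) and −0.12 against attached cells (adjusted p = 0.0986, edgeR), neither passing. The fall lost its call in 7 of 21 alternatives, among them library totals without TMM (−0.14, adjusted p = 0.0695), counts rebuilt from TPM (−0.07, adjusted p = 0.540) and the omission of attached library 1 or 3 or suspended vehicle library 1 or 2 (adjusted p from 0.0530 to 0.0880, edgeR). The ratio of *TDO2* to *QPRT* TPM was 2.42 ± 0.158, 3.70 ± 0.317 and 4.38 ± 0.273 in the 3 groups (mean ± SD, n = 3 each).

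**Figure D3:**
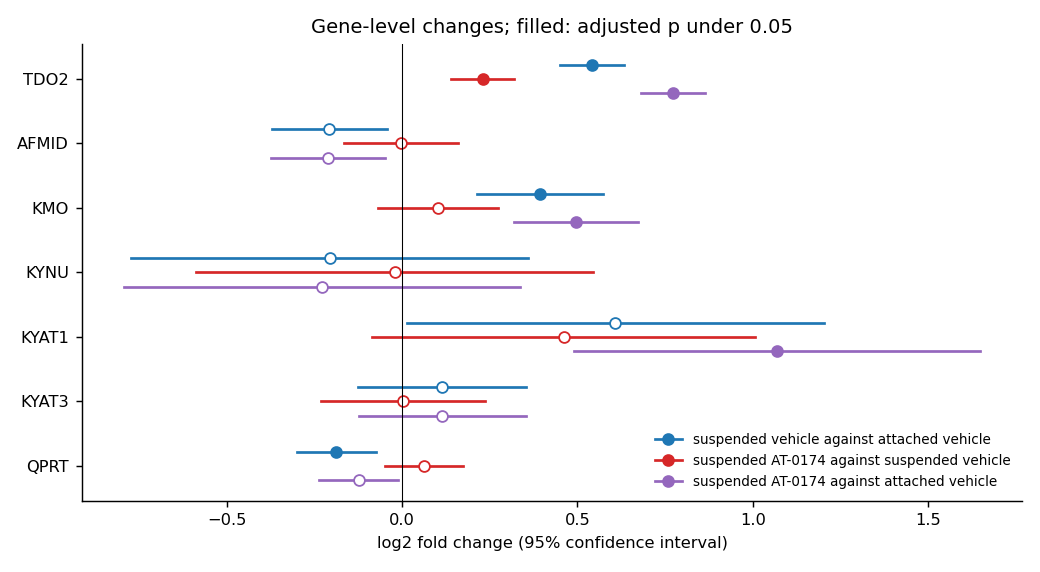
Log2 fold change with 95% confidence interval of the 7 tested genes in the 3 comparisons; filled points have an adjusted p under 0.05 in edgeR. *TDO2* is the only gene filled in all 3 comparisons, and the intervals of *KYNU* and *KYAT1* are the widest.

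The aminotransferases KYAT1, KYAT3 and AADAT convert kynurenine to kynurenic acid. *AADAT* (ENSG00000109576, chr4:170060222-170091699, minus strand) had 0 counts in all 9 libraries. *KYAT3* (ENSG00000137944, chr1:88935773-88992953, minus strand) measured 11.9, 11 and 8.24 CPM in attached cells, 11.2, 11.8 and 10.7 CPM in suspension with vehicle and 11.7, 11.5 and 10.6 CPM with AT-0174. The groups overlapped, and attached library 3 was the lowest. The log2 fold change was 0.11 in suspension (interval −0.13 to 0.35, adjusted p = 0.516, edgeR) and 0.00 with AT-0174 (interval −0.23 to 0.24, adjusted p = 0.998, edgeR). *KYAT3* shares 359 of its 2196 exonic bases with *RBMXL1* on the same strand, whose log2 fold changes of 0.04, −0.06 and −0.02 did not pass either.

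*KYAT1* (ENSG00000171097, chr9:128832942-128882494, minus strand) measured 0.497, 0.470 and 0.438 CPM in attached cells, 0.594, 0.635 and 0.910 CPM in suspension with vehicle and 0.849, 0.908 and 1.2 CPM with AT-0174. All 6 suspended libraries lay above the attached ones, and the suspended groups overlapped. These levels rest on 16.5 to 52.5 counts a library. The log2 fold change was 0.61 in suspension (interval 0.01 to 1.2, adjusted p = 0.139, edgeR) and 0.46 with AT-0174 against vehicle (interval −0.08 to 1.01, adjusted p = 0.646, edgeR). Only AT-0174 against attached cells was called, at 1.07 (SE 0.267, interval 0.49 to 1.65, adjusted p = 0.0123, edgeR), and without AT-0174 library 3 it was 0.90 (adjusted p = 0.0534).

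This value is uncertain, because 2055 of the 3585 exonic bases of *KYAT1* also belong to ENSG00000286112 (chr9:128819663-128881931), a protein-coding gene model on the same strand. ENSG00000286112 held more reads than *KYAT1*, and it fell where *KYAT1* was higher. It measured 7.19, 8.36 and 7.98 CPM in attached cells, 5.79, 6.69 and 5.19 CPM in suspension with vehicle and 5.45, 5.45 and 4.90 CPM with AT-0174. Its log2 fold change was −0.41 in suspension (SE 0.105, adjusted p = 0.0161, edgeR) and −0.57 for AT-0174 against attached cells (SE 0.106, adjusted p = 0.00240, edgeR). The sum of both genes was 7.69, 8.83 and 8.42 CPM in attached cells, 6.38, 7.32 and 6.10 CPM in suspension with vehicle and 6.29, 6.35 and 6.10 CPM with AT-0174. Summed in this way, an alternative chosen after seeing the data, the locus fell by 0.33 on the log2 scale in suspension (SE 0.090, adjusted p = 0.0210, edgeR) and by 0.41 with AT-0174 against attached cells (SE 0.090, adjusted p = 0.00607, edgeR). Most counts in the sum came from ENSG00000286112, so the sum follows that gene and cannot show the direction of *KYAT1* itself. How shared reads were split between both genes was not tested.

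**Figure D4:**
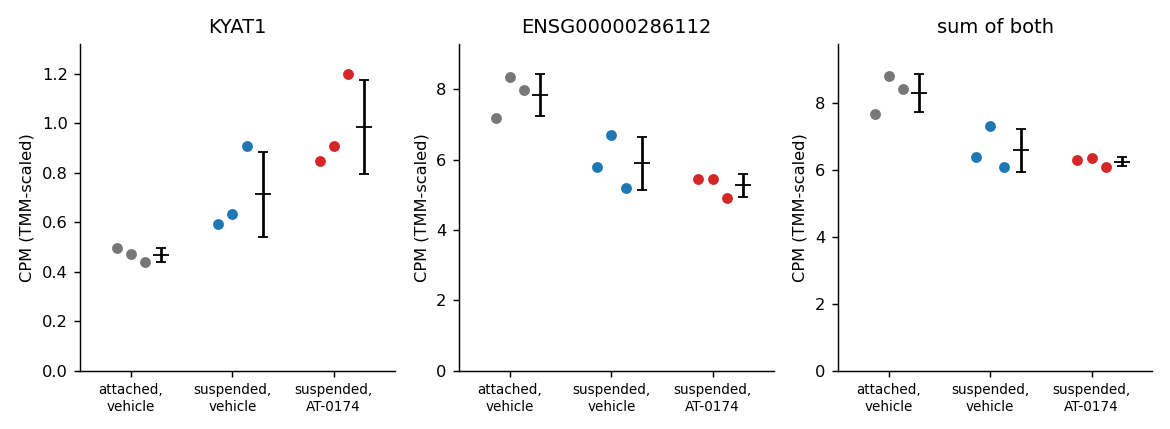
CPM in each library of *KYAT1*, of the overlapping gene ENSG00000286112 and of their sum, with group means. *KYAT1* alone is higher in all 6 suspended libraries than in attached cells, whereas the sum is lower in all 6.

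Of the 85 transcripts, 55 had reads, 27 were tested among 66693 transcripts, and 24 held at least 5% of their gene's reads. Estimated counts of transcripts carry an error of assignment that is not part of these tests. In suspended against attached cells 1 of 27 was called, against 0.252% of all transcripts (0.166% higher and 0.0855% lower). With AT-0174 against vehicle 0 were called, against 0.0345% of all transcripts (0.027% higher and 0.0075% lower), 2 of 27 had an unadjusted p under 0.05 in edgeR, and limma-voom also called 0. With AT-0174 against attached cells 1 was called, against 0.591% of all transcripts (0.421% higher and 0.169% lower).

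The transcript called was *TDO2* ENST00000536354 in both cases. It is the main coding form, with 1700 bases, 12 exons and 1218 coding bases, and it held 98.3% of the gene's reads. Its reads were 4452, 4060 and 4270 in attached cells, 6732, 7301 and 6806 in suspension with vehicle and 9580, 7812 and 8453 with AT-0174. The groups did not overlap, before scaling for depth. It rose by a log2 fold change of 0.58 in suspension (SE 0.055, adjusted p = 0.0137, edgeR) and was 0.80 above attached cells with AT-0174 (adjusted p = 0.00319, edgeR). For AT-0174 against vehicle it was 0.21 (interval 0.09 to 0.34), with an unadjusted p of 0.00458 and an adjusted p of 1 in edgeR. Without attached library 2 or suspended vehicle library 2 the call in suspension was lost, at adjusted p = 0.0644 and 0.0691.

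*KMO* reads fell mainly to 3 coding transcripts. ENST00000366559, of 5017 bases, held 53.0% of them, with 182, 135 and 185 reads in attached cells, 231, 288 and 249 in suspension with vehicle and 321, 333 and 283 with AT-0174. Its log2 fold change of 0.49 in suspension did not pass (adjusted p = 0.190, edgeR). It is also the form that carries the 1691 bases shared with *OPN3*. ENST00000366558, of 1868 bases and 32% of reads, shares 123 bases with *OPN3* and had 0.29 in suspension (adjusted p = 0.557, edgeR). ENST00000366555, of 609 bases and 9.72% of reads, shares 219 bases with *OPN3* and had 0.76 (adjusted p = 0.413, edgeR). All 3 log2 fold changes in suspension were above 0, as at the gene. Per length the order of the 3 differed from that by reads, since in attached cells ENST00000366559 had a mean of 1.25 TPM, ENST00000366558 2.46 TPM and ENST00000366555 2.42 TPM, and the first was also the lowest in both suspended groups.

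Whether transcripts of 1 gene changed by different amounts was tested with edgeR's diffSpliceDGE in 11017 genes. In suspension it called 1 of the 6 members that had several tested transcripts, *QPRT* (adjusted p = 0.0329), against 3.22% of genes. *KYAT3* (adjusted p = 0.0743) and *AFMID* (adjusted p = 0.0981) did not pass. *AFMID* was called in 5 of 12 alternatives, namely with the Simes test (adjusted p = 0.0193) and without suspended vehicle library 3 (0.0466) or AT-0174 library 1, 2 or 3 (0.0364, 0.00538 and 0.0404), and its adjusted p ranged up to 0.428. With AT-0174 against vehicle it called 0 of the 6 members, against 0.699% of genes, and *TDO2* alone had an unadjusted p under 0.05. limma's diffSplice called *QPRT* (adjusted p = 0.0186) and *KYAT3* (adjusted p = 0.0287) in suspension, against 4.05% of genes, and 0 members with AT-0174, against 0.0817%. On simulated data most calls of diffSpliceDGE were genes left unchanged and those of limma's diffSplice were not, so its calls are not relied on alone.

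**Figure D5:**
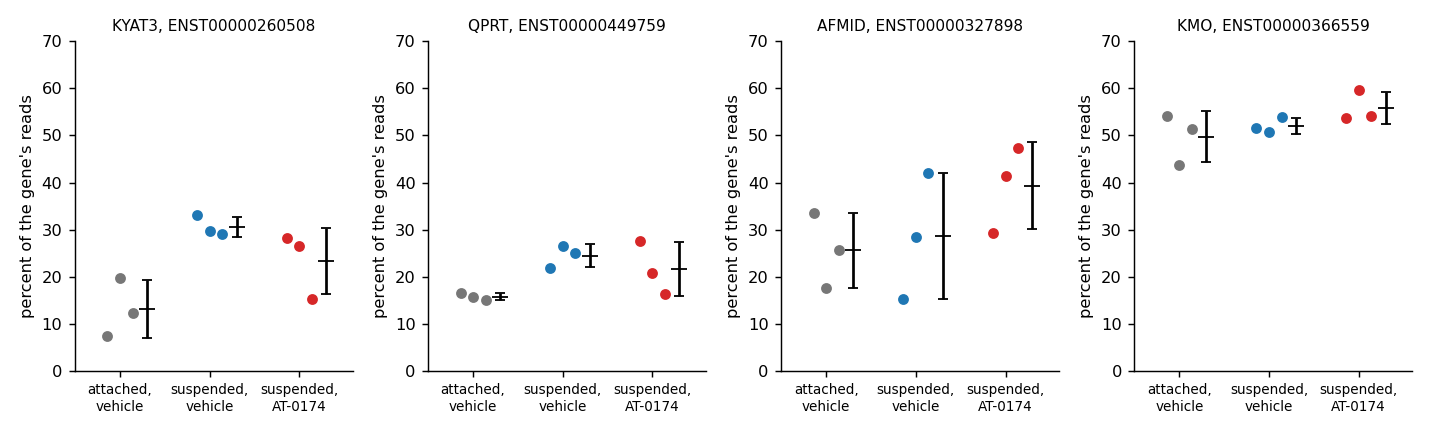
Share of the gene's reads, in percent, assigned to one transcript each of *KYAT3*, *QPRT*, *AFMID* and *KMO* in each library, with group means. The shares of *KYAT3* ENST00000260508 and *QPRT* ENST00000449759 are higher in the 3 suspended vehicle libraries than in all attached ones, while those of *AFMID* ENST00000327898 spread widely within groups.

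*QPRT* was carried by ENST00000395384, of 2200 bases and 70.5% of reads, and ENST00000449759, of 1237 bases and 20.7%. Both have the same 891 coding bases and differ in their first exons and the end of the last one. ENST00000449759 starts with a 38-base exon at chr16:29663279-29663316, upstream of the first exon of the other at chr16:29679180-29679210. Its share was 16.5, 15.7 and 15% in attached cells, 21.8, 26.6 and 25.0% in suspension with vehicle and 27.6, 20.8 and 16.4% with AT-0174. Suspended vehicle libraries lay above all attached ones, and AT-0174 libraries overlapped both. In the transcript test ENST00000395384 had −0.29 (adjusted p = 0.137, edgeR) and ENST00000449759 0.49 (adjusted p = 0.340, edgeR) in suspension, and neither passed. ENST00000564967, a retained intron with 7.59% of reads, had −0.52 (adjusted p = 0.223, edgeR). The diffSpliceDGE call on *QPRT* was lost in 8 of 12 alternatives. It was lost with the Simes test, which was far from a call, and with a replicate block (adjusted p = 0.0567). The omission of any 1 attached library, of suspended vehicle library 2 or 3 or of AT-0174 library 2 also removed it, with adjusted p from 0.0609 to 0.221.

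*KYAT3* had 2 coding transcripts with at least 5% of its reads. ENST00000370491, of 1868 bases and 1260 coding bases, held 76.3% of reads and ENST00000260508, of 1815 bases and 1362 coding bases, 23.0%. The second has an exon of 100 bases (chr1:88988252-88988351, minus strand) that the first lacks, which holds its first 33 codons. Those codons, which the other message lacks, are printed here from the minus strand (hg38, chr1:88988252-88988350), with the start codon in capitals.
*KYAT3* exon: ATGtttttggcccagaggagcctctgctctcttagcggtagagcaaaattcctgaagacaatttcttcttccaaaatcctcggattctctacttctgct
ENST00000260508 had 34, 78 and 40 reads in attached cells, 143, 155 and 136 in suspension with vehicle and 159, 128 and 71 with AT-0174. As a share of the gene this was 7.40, 19.7 and 12.4%, then 33.1, 29.7 and 29%, then 28.1, 26.6 and 15.2%. Every suspended vehicle library lay above every attached one, while AT-0174 library 3 lay within the attached range. Its log2 fold change in suspension was 1.37 (SE 0.410, interval 0.42 to 2.32), with an unadjusted p of 0.0103 and an adjusted p of 0.194 in edgeR, so it did not pass over all transcripts. ENST00000370491 had −0.21 (adjusted p = 0.671, edgeR).

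*AFMID* reads were divided mainly between ENST00000409257, of 1730 bases and 39.8%, and ENST00000327898, of 1700 bases and 31.3%. Both start at the same base and have 11 exons, with 909 and 924 coding bases. The share of the first was 42.3, 52.3 and 45% in attached cells, 58.3, 31.5 and 23.7% in suspension with vehicle and 45.5, 34 and 27% with AT-0174. Replicates of 1 group differed by more than the groups did. ENST00000587750 (8.11%) and ENST00000592988, a retained intron (6.88%), held most of the remaining reads, and none of the 4 was called.

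The rarer members had too few reads to compare transcripts. *KYNU* reads fell to ENST00000409512 (83.6%) and ENST00000264170 (12.3%). *KYAT1* reads fell to ENST00000462722 (47.5%), ENST00000302586 (30.4%) and ENST00000451800 (13.2%), and the share of the first swung from 0 to 100% between attached libraries. The 2 counts of *IDO1* were in ENST00000518237. The 14 counts of *HAAO* were in ENST00000402698 (5 counts), ENST00000406007 (3), ENST00000294973, ENST00000404451 and ENST00000431905 (2 each).

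Genes around the pathway were counted from written lists. In suspension the median log2 fold change of tested genes was −0.06 for the transporters, −0.04 for NAD synthesis and −0.0050 for cofactor supply, near that of all genes, and with AT-0174 against vehicle it was 0.03, 0.01 and 0.06. Of 7 tryptophan transporters 5 were tested, and in suspension 2 rose and 1 fell, beside 21.2% of all genes called (10.4% higher and 10.8% lower). *SLC7A5*, the light chain of the main tryptophan and kynurenine exchanger, measured 73.4, 82.5 and 72.9 CPM in attached cells, 95.2, 102 and 94.4 CPM in suspension with vehicle and 99.0, 102 and 96.7 CPM with AT-0174. It rose in suspension (log2 0.35, SE 0.050, adjusted p = 0.000733, edgeR), as did *SLC3A2*, its heavy chain (0.13, adjusted p = 0.0241). *SLC7A8*, another light chain for the same partner, fell by 0.25 on the log2 scale (adjusted p = 0.00274, edgeR). Against attached cells, AT-0174 gave 0.38, 0.16 and −0.30 for the 3 genes, all called beside 24% of all genes, and against vehicle 0 of 5 were called beside 0.779%. The call on *SLC3A2* in suspension was lost in 6 of 21 alternatives, among them the omission of attached library 1 or 2 or suspended vehicle library 2 or 3, with adjusted p from 0.0508 to 0.0908 in edgeR.

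Of 5 further kynurenine enzymes 3 were tested and 1 was called in suspension, beside 21.2% of all genes. *GOT2*, the mitochondrial aspartate aminotransferase that can also make kynurenic acid, rose in suspension (log2 0.15, adjusted p = 0.00894, edgeR) and was −0.01 with AT-0174 against vehicle (adjusted p = 0.950, edgeR). *ACMSD*, which diverts the pathway from NAD, reached at most 0.09 TPM. Of 6 genes for other fates of tryptophan 3 were tested and 0 were called in any comparison. Of all genes, 21.2%, 0.779% and 24% were called in the 3 comparisons.

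Of 10 genes that act after quinolinic acid or elsewhere in NAD synthesis 9 were tested, and in suspension 1 rose and 1 fell, a share near the 21.2% of all genes called. *NMNAT1*, the nuclear enzyme of the last common step, fell by 0.48 on the log2 scale (SE 0.103, adjusted p = 0.00662, edgeR), from 4.60, 4.87 and 5.00 CPM to 3.67, 3.51 and 3.16 CPM. *NADK2*, the mitochondrial NAD kinase, rose by 0.18 (adjusted p = 0.0271, edgeR), a call lost in 5 of 21 alternatives, including the omission of attached library 1 or 3 or suspended vehicle library 2 (adjusted p from 0.0829 to 0.112). With AT-0174, 0 of 9 were called against vehicle, beside 0.779% of all genes, and 0 of 9 against attached cells, beside 24%.

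Genes that make or break down the heme, flavin and vitamin B6 cofactors of the pathway's enzymes were tested in full, 7 of 7. With AT-0174 against vehicle 3 were called, all higher, beside 0.779% of all genes (0.522% higher). *ALAS1* and *FECH* belong to the synthesis of heme, the cofactor of TDO2 and IDO1, and *HMOX1* to its breakdown. The list was chosen with earlier results of these data known, so the count is a description and not a test of heme genes. *HMOX1*, which degrades heme, measured 52.4, 45.6 and 46.4 CPM in attached cells, 35.9, 37.0 and 38.5 CPM in suspension with vehicle and 76.2, 68.3 and 78.3 CPM with AT-0174. It fell by 0.37 in suspension (adjusted p = 0.00200, edgeR) and rose by 1.00 with AT-0174 over vehicle (SE 0.062, adjusted p = 2.5e-06, edgeR), both on the log2 scale. *ALAS1*, the first enzyme of heme synthesis, measured 44.6, 41.6 and 42.6 CPM with vehicle and 53.0, 51.7 and 51.9 CPM with AT-0174 (log2 0.28, adjusted p = 0.0119, edgeR). *FECH*, the last enzyme, measured 56.9, 52.3 and 55.3 CPM with vehicle and 64.4, 63.2 and 61.2 CPM with AT-0174 (log2 0.20, adjusted p = 0.0412, edgeR). The call on *FECH* was lost in 13 of 21 alternatives, including the omission of any 1 library (log2 0.16 to 0.22). That on *ALAS1* was lost in 6, including the omission of suspended vehicle library 2 or 3 or AT-0174 library 1 or 3 (adjusted p from 0.0610 to 0.0725, edgeR).

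In suspension 2 of these 7 fell, *HMOX1* and *PDXK*, the vitamin B6 kinase (−0.11, adjusted p = 0.0273, edgeR), and 0 rose, beside 21.2% of all genes called (10.8% lower). The call on *PDXK* was lost in 9 of 21 alternatives, including the omission of any 1 attached library or of suspended vehicle library 1 or 3 (adjusted p from 0.0547 to 0.0827, edgeR). With AT-0174 against attached cells 4 of 7 were called, all higher, beside 24% of all genes (12.2% higher). The calls on *HMOX1* and *ALAS1* held in all 21 alternatives, with log2 fold changes of 0.58 to 0.69 and 0.25 to 0.33. *FECH* was higher by 0.15 (adjusted p = 0.0182, edgeR), a call lost in 4 of 21 alternatives. *RFK*, which makes flavin mononucleotide, was also higher with AT-0174 than in attached cells (log2 0.29, adjusted p = 0.0229, edgeR). Without attached library 1 or 3 or AT-0174 library 2 or 3 this call was lost, at adjusted p from 0.0536 to 0.0735.

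Both receptors listed for kynurenine and kynurenic acid were tested. *AHR* measured 11.6, 11.5 and 12.0 CPM in attached cells, 10.5, 10.9 and 11.5 CPM in suspension with vehicle and 10.1, 9.72 and 10.3 CPM with AT-0174. It was called only for AT-0174 against attached cells, beside 24% of all genes, where it fell by 0.21 on the log2 scale (adjusted p = 0.0255, edgeR), a call lost in 9 of 21 alternatives, including the omission of attached library 1 or 3 or AT-0174 library 1 or 2 (adjusted p from 0.0513 to 0.0824). Against vehicle it was −0.13 (adjusted p = 0.591, edgeR). *GPR35* was not called in any comparison.

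Among 9363 tested genes with a mean of at least 10 CPM, likeness to the *TDO2* pattern was measured as the root mean square difference of log2 CPM over the 9 libraries, each gene centred on its own mean. The closest were *PLCB1* (0.0567), *S1PR3* (0.0622), *LAD1* (0.0676), *GPCPD1* (0.0853) and *JUNB* (0.0890), beside a median of 0.323 over all these genes. *PLCB1*, a phospholipase C, averaged 16.7, 22.5 and 27 CPM in the 3 groups, and *S1PR3*, a sphingosine 1-phosphate receptor, 82.9, 117 and 136 CPM. *LAD1*, a filament-associated protein, averaged 101, 137 and 170 CPM, *GPCPD1*, a glycerophosphodiesterase, 9.89, 13.8 and 16.5 CPM, and *JUNB*, a subunit of AP-1, 208, 310 and 328 CPM. Of the pathway, *KMO* came closest at 0.142, at place 34, although its mean lies near the cutoff, followed by *KYAT3* at 0.295, *QPRT* at 0.395 and *AFMID* at 0.429. These values describe 9 libraries that share their groups.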

How the data were processed

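RNA-seq was done on 9 libraries of MDA-MB-453 cells, 3 for each of 3 conditions described as biological triplicates. Per the study's methods, the authors trimmed adapters with Cutadapt 3.4 in Trim Galore 0.6.7, aligned reads with STAR 2.7.9a to GRCh38 with Ensembl genes, quantified them with Salmon 1.10.1 and summed transcripts by gene with tximport. The study's methods name the Universal Plus mRNA kit and the labels a SMARTER kit. Strandedness is not given in the sources used here. The deposited gene table holds the authors' estimated counts, with no normalization, and equals the sum of the transcript values of each library. The deposited transcript tables hold the authors' estimated counts and TPM, which Salmon corrects for effective length. Salmon divides reads between transcripts that share sequence, so values of overlapping genes and similar transcripts depend on that division.

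Estimated counts were rounded, filtered with filterByExpr and scaled by TMM, and all 9 libraries entered one quasi-likelihood fit in edgeR 4.0.16 (R 4.3.3) with condition as the only term, giving 3 contrasts. Adjusted p-values are Benjamini-Hochberg values over all 15528 genes or 66693 transcripts, with a threshold of 0.05. Transcript use was tested with diffSpliceDGE. TPM of a gene is the sum over its transcripts. CPM values use TMM-scaled library sizes, and limits for a count of 0 use the unscaled totals. Alternatives were other scalings and filters, DESeq2 1.42.0, limma 3.58.1, counts rebuilt from TPM, a stricter threshold, a replicate block, only the libraries of a contrast, and each library left out in turn. The procedures were tested on simulated data. No 2 replicates agreed within sampling noise (chi-square per degree of freedom 2.94–17.8 over 9 pairs). Positions and transcript types are from GENCODE 44, and windows before start sites from RefSeq (GRCh38.p14).

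The genes, lists, markers and alternatives were chosen with earlier results of these data known. Named are the 10 members, their transcripts with at least 5% of the gene's reads, list genes past the threshold, and the 5 genes most like *TDO2*. *IDO2*, *ACMSD* and *GPR35*, the marker genes and genes overlapping a member are named beside these. The change of 1 luminal marker gene is not reported here.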

Additional observations from a re-analysis of the deposited data

How the results depend on the processing

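*TDO2* and *KMO* in suspension, and *TDO2* with AT-0174 against attached cells, kept direction and call in all 21 alternatives. Genes called in suspension numbered 1714 with counts rebuilt from TPM and 1405 at a threshold of 0.01. For AT-0174 against vehicle they numbered 499 with no filter on low counts, 239 with DESeq2, 35 with rebuilt counts and 52 at 0.01, and for AT-0174 against attached cells 2056 with rebuilt counts and 1839 at 0.01. Members called were 1 with rebuilt counts for AT-0174 against attached cells and 0 at 0.01 for AT-0174 against vehicle. The cause was not tested. With each library left out in turn, genes called ranged over 1935–3260 in suspension, 63–128 with AT-0174 against vehicle and 2239–3680 with AT-0174 against attached cells, and members called over 0–1 in the second and 2–5 in the third.

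Transcripts called in the main fit numbered 168, 23 and 394 in the 3 comparisons. For AT-0174 against attached cells they numbered 221 with no filter. With only the 6 libraries of a contrast, they numbered 41, 4 and 55 in the 3 comparisons, with 0 members in suspension, and with limma-voom 100 in suspension. With each library left out they ranged over 15–159, 12–26 and 88–193, and members in suspension over 0–1. Changed transcript use was called by the main test in 355 genes in suspension and 77 with AT-0174 against vehicle. Transcript use in AT-0174 against vehicle was called in 165 genes by the Simes test and 9 by limma's diffSplice, which called 2 members in suspension. With each library left out it was called in 177–470 genes in suspension and 75–131 with AT-0174, with 0–2 members in suspension.

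Same-numbered replicates did not deviate together (correlations of −0.0818 to 0.0926 over 9 pairs), so no shift shared by number was seen. With 3 libraries a group this cannot show whether replicates were handled in matched sets. With a replicate block, members called for AT-0174 against attached cells numbered 5, transcripts called 0, 0 and 18 in the 3 comparisons with 0 members in suspension, and genes with changed transcript use 194 in suspension, with 0 members, and 43 with AT-0174.

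Log2 fold changes that turned direction were of differences near 0 or low counts, apart from *KYAT1* summed with ENSG00000286112, at −0.33, −0.080 and −0.41. For AT-0174 against vehicle, *KYAT3* was −0.019 without TMM, −0.0023 with at least 10 counts in every library and −0.019 with rebuilt counts, *AFMID* 0.0024 with no filter and 0.00034 with limma-voom, *KMO* −0.072 with rebuilt counts and ENST00000409257 0.0086 with limma-voom. *KYNU* in suspension was 0.23 with rebuilt counts. With each library left out, AT-0174 against vehicle ranged over −0.053 to 0.019 for *AFMID*, −0.035 to 0.040 for *KYAT3*, −0.17 to 0.10 for *KYNU*, −0.0046 to 0.17 for ENST00000366558, −0.36 to 0.40 for ENST00000409257 and −0.38 to 0.049 for ENST00000449759. Suspension ranged over −0.032 to 0.22 for *KYAT3* and −0.46 to 0.27 for ENST00000327898, and AT-0174 against attached cells over −0.029 to 0.23 for *KYAT3* and −0.19 to 0.12 for ENST00000370491. None of these was called, apart from the *KYAT1* sum in suspension (adjusted p = 0.0210, edgeR) and with AT-0174 against attached cells (adjusted p = 0.00607, edgeR). Depth limited *KYNU*, *KYAT1*, *HAAO* and *IDO1*.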

Other observations

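A pair of minor transcripts of the pathway was picked after its values were seen. *TDO2* ENST00000510293, a form of 379 bases without a coding frame and with 0.422% of the gene's reads, had 22, 11 and 15 reads in attached cells, 4, 14 and 0 in suspension with vehicle and 45, 73 and 71 with AT-0174. The AT-0174 libraries lay above all others, but the difference from vehicle did not pass over all transcripts (unadjusted p = 0.0152, adjusted p = 1, edgeR). *AFMID* ENST00000588800 was listed at 0 reads in all 3 attached libraries, with 38, 11 and 29 reads in suspension with vehicle and 17, 0 and 27 with AT-0174. In suspension its level did not pass over all transcripts (adjusted p = 0.196, edgeR). Its difference from the other *AFMID* transcripts passed as a single transcript in diffSpliceDGE (adjusted p = 0.0118), and the gene as a whole did not (adjusted p = 0.0981). On simulated data most genes called by diffSpliceDGE were left unchanged, and limma's diffSplice did not call *AFMID* (adjusted p = 0.428).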
